A study of Mus musculus with 8 samples.

Results

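Mouse chromosome 9 was followed in 8 liver tumors with 8736 of the 170305 different probes of a DNA array (5.13%). The set holds every probe, controls left out, that the scanner files place on chromosome 9 of the genome build mm9, and the choice of probes within the chromosome used no measured value. The probes span chr9:3046525-124061581, a stretch of 121 Mb, at a median spacing of 10.6 kb, and the widest gap without a probe is 232 kb at chr9:88774119-89006351. Each tumor came from a different male FAH-/- mouse. Its DNA carried the red dye Cy5 and was hybridized against the green (Cy3) DNA of normal liver, pooled once for all arrays from 6 FAH+/+ littermates, also male. FAH is fumarylacetoacetate hydrolase, which carries out the final step in the breakdown of tyrosine, and mice without it are kept alive with NTBC (nitisinone), a drug that blocks the same pathway further upstream. Per the labels the drinking water held 7.5 mg/L NTBC, and for between 6 and 12 months the mice were given only 2.5% of that dose. The labels used here give no strain, no age and no histology, and do not say whether the littermates received NTBC.

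Array comparative genomic hybridization measures how much DNA of a region a tumor holds relative to a reference, given as the log2 of the red over the green signal. A ratio of 0 means the same share of the total DNA in both, and losing 1 of 2 copies in every cell gives -1. Adult mouse hepatocytes are often polyploid and a tumor sample also holds normal cells, so a shallow loss, well short of that value, does not tell copies per cell from the share of cells that carry the change. Neither was measured here. Chromosome 9 carries the YAP and inhibitor-of-apoptosis gene neighbourhood, lipoprotein and cytochrome P450 genes of the liver, glutathione genes and several DNA repair genes.

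All 8 tumors form 1 group of replicates and are numbered as deposited. With 1 pool as the reference, no error given includes the spread between wild-type mice. The dyes were not swapped, and the tumor mice's own normal liver was not measured. Between 97.5% and 99.9% of the chromosome 9 spots were well above background. Tumors 7 and 8 stood apart from the other 6: the noise between neighbouring probes was 0.39 on the log2 scale in both and 0.62 to 0.65 in tumors 1 to 6. All arrays shared a pattern of high and low probes, which was weaker in tumors 7 and 8 (0.57 and 0.60 times its median strength) than in tumors 1 to 6 (1.03 to 1.08 times). Values are therefore given on a scale with this pattern kept and on another with it subtracted. On the latter the noise had the opposite order, 0.21 and 0.18 in tumors 7 and 8 against 0.12 to 0.16 in tumors 1 to 6. On both scales 0 is the commonest level of the autosomes in each tumor, the peak of the density of segment means, which lay 0.015 to 0.23 above the array median with the pattern kept. The targeted gene lies on another chromosome and was not analysed here.

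Chromosome 9 was below the commonest level in 3 tumors and at or near it in the other 5. With the pattern kept, the mean log2 ratio over all its probes was 0.011, -0.16, 0.0099, -0.16, 0.013, -0.46, -0.048 and 0.014 in tumors 1 to 8, in that order. Tumor 6 lay far below the rest, tumors 2 and 4 shared a shallow level close to each other, and tumors 1, 3, 5 and 8 lay within 0.014 of 0. With the pattern subtracted the order was nearly kept, with -0.14, -0.15 and -0.46 in tumors 2, 4 and 6, -0.038 in tumor 7, and 0.021, 0.026, 0.017 and 0.024 in tumors 1, 3, 5 and 8. A loss of chromosome 9 is therefore a description of some of these tumors and not of the group. The mean over tumors was -0.097 ± 0.16 (SD, n = 8), with 4 of 8 below 0 (two-sided exact sign-flip permutation p = 0.125, 0.25 after Benjamini-Hochberg adjustment over 19 autosomes and X). Subtracting the pattern gave -0.088 ± 0.17 (SD, n = 8; exact p = 0.211, adjusted 0.412). By the same test 20% of the 20 chromosomes passed an adjusted 0.05 with the pattern kept and 0.0% with it subtracted.

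The signals before processing were lowest in the same 3 tumors. The median signal over local background in the tumor channel, on chromosome 9 relative to all probes, was 1.09, 0.956, 1.07, 0.940, 0.975, 0.849, 1.01 and 1.04 in tumors 1 to 8. Tumor 6 was lowest and tumors 4 and 2 followed, with tumor 5 a little above them. The reference channel stayed between 1.01 and 1.03 on the 8 arrays.

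**Figure D1:**
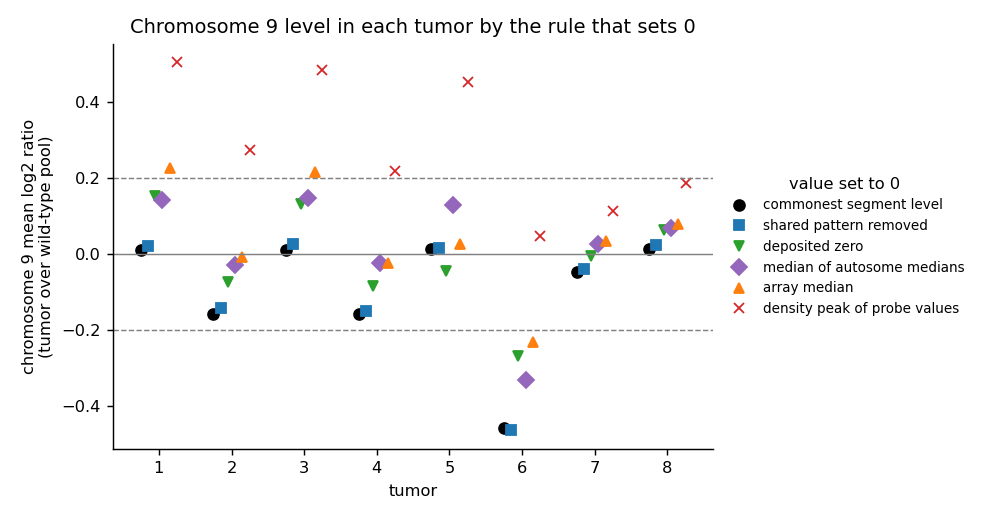
Mean log2 ratio of chromosome 9 (vertical axis, tumor over wild-type pool) in each of 8 tumors (horizontal axis), with 1 symbol for each rule that sets 0 and dashed lines at the call thresholds of 0.2 and -0.2. Tumor 6 is the lowest under every rule, from -0.46 on the commonest level to 0.048 on the density peak of probe values, and tumors 1 and 3 cross 0.2 on the array median at 0.23 and 0.22.

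Whether chromosome 9 was low can also be asked without the 0 of the array, by subtracting the median of the other 18 autosomes of the same tumor. That median is itself a reference level, and it moves where many autosomes are lost or gained. The difference from it was 0.017, -0.14, 0.033, -0.14, 0.0091, -0.45, -0.020 and 0.020 in tumors 1 to 8. The same 3 tumors were low by this measure, and the differences of the other 5 lay between -0.020 and 0.033. The mean was -0.084 ± 0.16 (SD, n = 8; two-sided exact permutation p = 0.219, adjusted 0.52 over 19 autosomes), and without tumors 2, 4 and 6, which were left out after their values were seen, it was 0.012 ± 0.020 (SD). No autosome (0.0%) passed this test after adjustment.

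Within each tumor the mean of chromosome 9 lay close to the means of other chromosomes. In tumor 6 chromosomes 8, 12, 13 and 14 lay within 0.05 of it, from -0.49 to -0.47, and chromosome 9 was the 5th lowest of 19 autosomes. In tumor 2, where it was 3rd lowest, chromosomes 3, 4, 6, 12 and 13 lay at -0.17 to -0.12. In tumor 4, where it was 6th lowest, chromosomes 3, 10, 14 and 19 lay at -0.20 to -0.17. Chromosome 3 was in the sets of both tumors 2 and 4. The sets were picked by closeness to the mean of chromosome 9, and a mean can average parts at unlike levels. In tumor 4, 44.2% of the length of chromosome 14 was called lost on both scales. For chromosome 9 of that tumor it was 6.66% with the pattern kept and 0.331% with it subtracted. In tumor 5 chromosome 9 was 1 of 15 autosomes within 0.05 of 0, all between -0.017 and 0.018, and in tumor 1 it was 1 of 14.

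**Figure D2:**
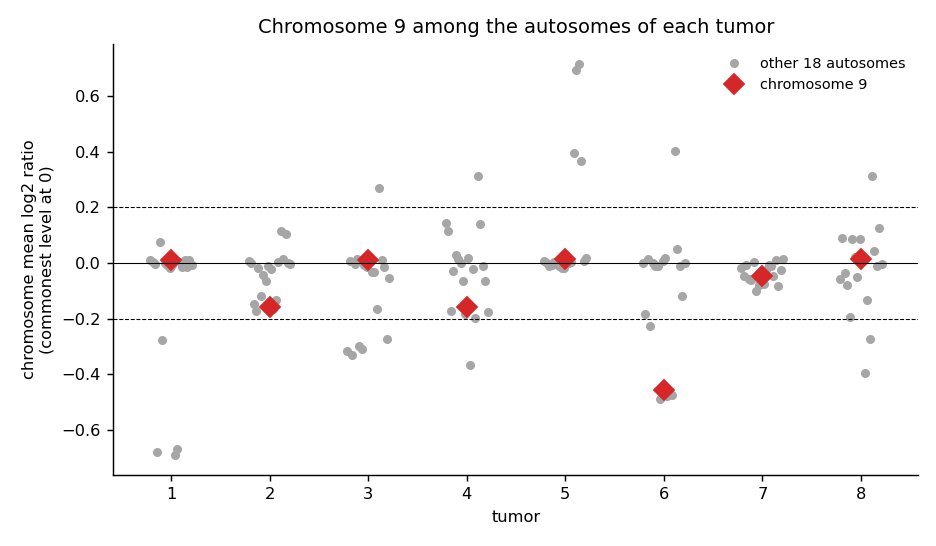
Mean log2 ratio of every autosome (vertical axis, commonest level at 0, pattern kept) in each of 8 tumors (horizontal axis). Red diamonds are chromosome 9 and grey points the other 18 autosomes, with dashed lines at 0.2 and -0.2. Chromosome 9 lies with a low set of chromosomes in tumor 6 near -0.47, at -0.16 in tumors 2 and 4, and near 0 in tumors 1, 3, 5 and 8.

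Of the other autosomes, chromosome 8 followed chromosome 9 most closely over the 8 tumors. Chromosome 9 minus chromosome 8 was 0.00068 ± 0.059 (SD, n = 8) and ranged from -0.094 in tumor 2 to 0.065 in tumor 8 (exact permutation p = 0.953). Both were low in tumor 6, chromosome 8 at -0.49, but in tumors 2 and 4 chromosome 8 lay at -0.064 and -0.066, above chromosome 9. In tumor 4 a called loss covered 17.9% of the length of chromosome 8 with the pattern kept, against 0% in tumor 2. Chromosome 12, the chromosome lost most often here, was lower than chromosome 9 in 7 of 8 tumors, by 0.17 ± 0.26 (SD, n = 8; exact permutation p = 0.0469, adjusted 0.281 over 18 autosomes). Chromosome 9 minus chromosome 14 was -0.0071 ± 0.20 (SD, n = 8; exact permutation p = 0.938), the sum of opposite differences, with -0.38 in tumor 5 and 0.29 in tumor 8. None of the 18 autosomes differed from chromosome 9 after adjustment, the lowest p that 8 tumors allow being 0.00781 before it.

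A segment, a run of neighbouring probes with 1 level, was called lost at a mean of -0.2 or lower with at least 5 probes, and a whole-chromosome loss needed 80% or more of the probed length in such segments. By this rule chromosome 9 was lost as a whole in tumor 6 only, 1 of 8 tumors, beside 11.2% of all pairs of a chromosome and a tumor. Subtracting the pattern again left it lost in tumor 6 only, beside 10% of all pairs. The share of its length called lost was 0%, 7.05%, 0%, 6.66%, 0%, 100%, 10.4% and 0.528% in tumors 1 to 8, with a median of 3.59%. Tumors 2 and 4, whose whole chromosome lay at a shallow level above the threshold, thus counted only for short stretches that dipped below it. With the pattern subtracted the share was lower in tumors 2, 4 and 7, at 0.812%, 0.331% and 3.99%, and slightly higher in tumors 3 and 8, at 0.048% and 0.724%. It stayed at 100% in tumor 6 and at 0% in tumors 1 and 5, and the median was 0.527%. A segmentation with a hidden Markov model gave 12.0% in tumor 2, 9.26% in tumor 4, 5.80% in tumor 7, 1.07% in tumor 8, 100% in tumor 6 and 0% in the rest.

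The shallow level of tumors 2 and 4 was spread along the chromosome and not set by a part of it. Chromosome 9 has 121 bins of 1 Mb, and with the pattern subtracted 121 of them lay below 0 in tumors 2, 4 and 6, against 36, 23, 30, 77 and 45 in tumors 1, 3, 5, 7 and 8. Bins at -0.1 or lower numbered 106 in tumor 2, 118 in tumor 4 and 121 in tumor 6, beside 25%, 29.5% and 47.4% of all bins of the genome in those tumors. There were 22 such bins in tumor 7 (19.5% of the genome), 1 in tumor 8 (27.4%) and 0 in tumors 1, 3 and 5 (18.5%, 31.3% and 0.751%). Subtracting the pattern evens out the bins by construction. With the pattern kept, 115, 116 and 121 bins lay below 0 in tumors 2, 4 and 6, against 48 to 76 in tumors 1, 3, 5, 7 and 8. Bins at -0.1 or lower then numbered 84, 87 and 121 in tumors 2, 4 and 6, against 11 to 28 in the others. Shares of all bins of the genome are not given for the counts with the pattern kept, nor for the counts below 0. Those counts therefore describe the spread along chromosome 9 only and do not set it apart from other chromosomes. Lowering the call threshold to 0.1 made the chromosome lost as a whole in tumors 2, 4 and 6, with 100% of its length in each with the pattern kept and 90.6%, 100% and 100% with it subtracted. The share of all pairs of a chromosome and a tumor lost at 0.1 is not given. The chromosomes listed above as close to chromosome 9 in tumors 2 and 4 also had means below -0.1, at -0.17 to -0.12 and -0.20 to -0.17. At a threshold of 0.3 tumor 6 alone was left, at 100% on both scales.

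**Figure D3:**
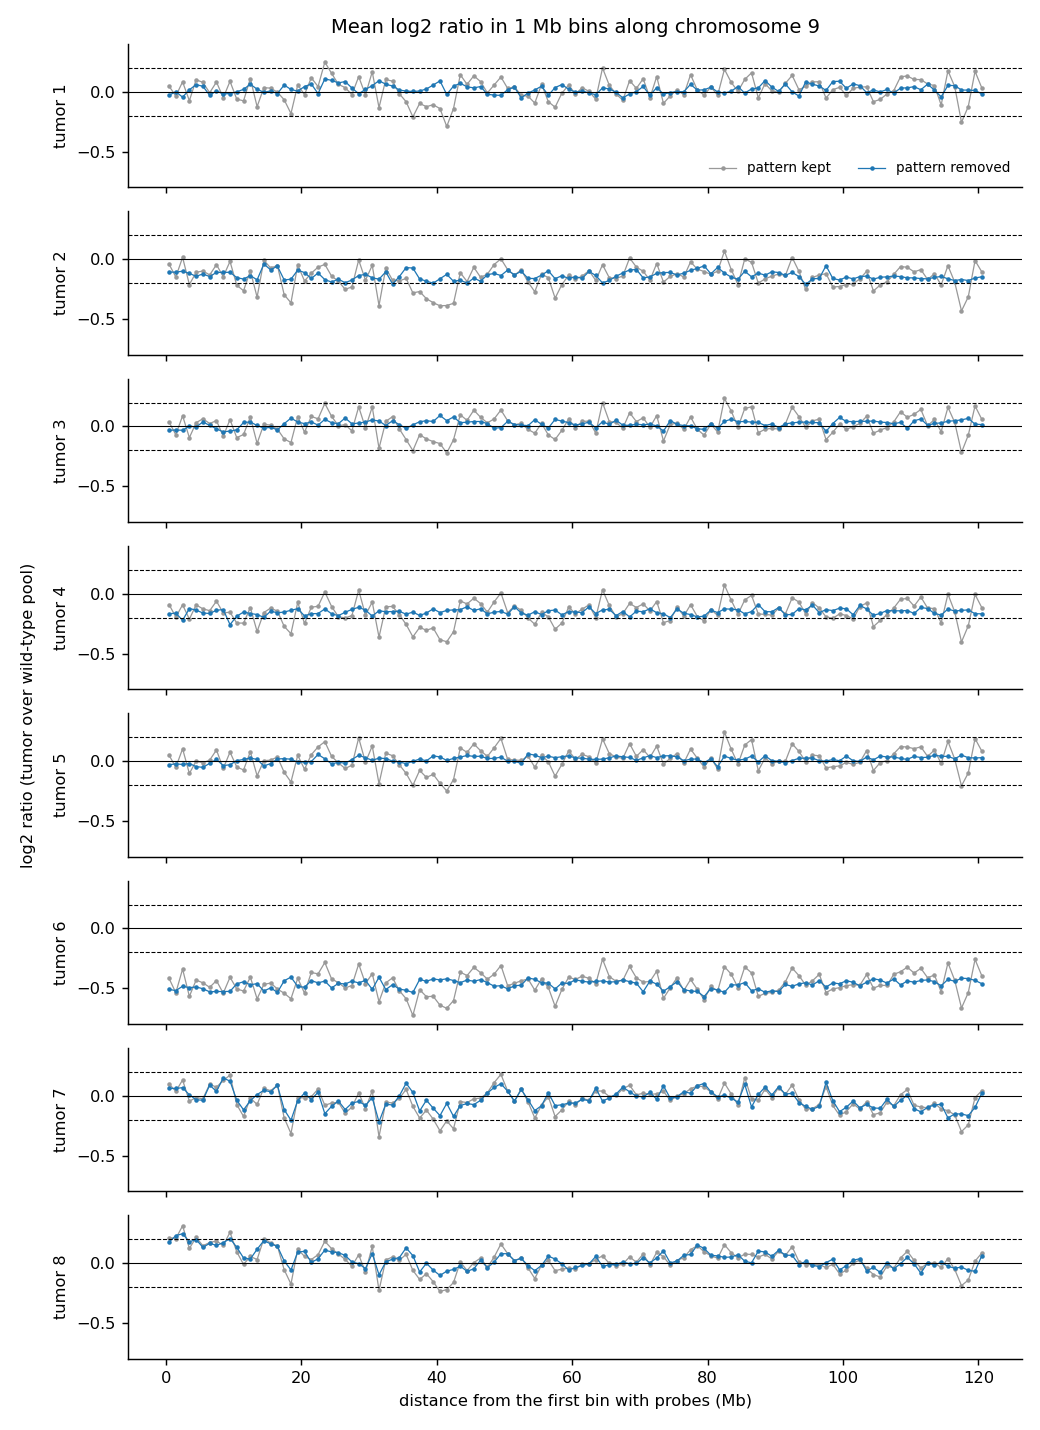
Mean log2 ratio (vertical axis) in 121 bins of 1 Mb along chromosome 9 (horizontal axis, distance in Mb from the first bin with probes), with 1 panel for each of 8 tumors, grey for the pattern kept, blue for the pattern subtracted and dashed lines at 0.2 and -0.2. The blue lines of tumors 2, 4 and 6 stay below 0 in all 121 bins, and those of tumors 7 and 8 vary more along the chromosome (SD over bins 0.077 and 0.075) than those of tumors 1 to 6 (0.024 to 0.036).

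The choice of 0 decided much of what was called. On the array median, chromosome 9 was 0.23, -0.0082, 0.22, -0.025, 0.028, -0.23, 0.035 and 0.081 in tumors 1 to 8, and it was then called gained as a whole in tumors 1 and 3, with 93.3% of the length in each. On that 0, 22.5% of all pairs of a chromosome and a tumor were gained and 6.88% were lost. Tumor 6 was still lost over 100%, although the segment nearest to the threshold had a mean of -0.21. On the deposited 0 of the processed signals chromosome 9 was 0.15, -0.073, 0.13, -0.084, -0.045, -0.27, -0.0048 and 0.064, with tumor 6 again the only whole loss. On the median of the autosome medians the means over probes were 0.14, 0.15 and 0.13 in tumors 1, 3 and 5, -0.030 and -0.023 in tumors 2 and 4 and -0.33 in tumor 6. Medians over the same probes were 0.019, 0.026 and 0.017 in tumors 1, 3 and 5. In tumors 2, 4 and 6 these medians were -0.13, -0.13 and -0.43. On the density peak of single probe values, which lay below the array median on every array, the means of all 8 tumors were above 0. Tumor 6 was at 0.048, with a median over probes of -0.054, and 5 tumors were called gained as a whole. The share of all pairs gained on that 0 is not given, but 2041 of all 2531 bins of the genome were called higher on it by the bin test described below. The mean over tumors was 0.040 ± 0.15, 0.017 ± 0.16 and 0.29 ± 0.18 (SD, n = 8) on the array median, the autosome medians and the density peak, with adjusted exact permutation p of 0.508, 0.903 and 0.0112. The direction of this mean over probes thus turned with the 0 chosen. These 3 rules, however, set a mean against a 0 made from medians or from a peak of probe values. Medians over the probes of chromosome 9 were lower than its means in every tumor. On the array median they were 0.10, -0.11, 0.093, -0.13, -0.084, -0.33, -0.010 and 0.037 in tumors 1 to 8. Tumor 6 was the lowest under each of these rules. Tumors 2 and 4 came next under all of them except the density peak, where tumors 7 and 8, at 0.11 and 0.19, lay below them.

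A scan of 0 gave the margin of each call. With the pattern kept, tumors 2 and 4 were called lost as a whole once 0 was raised by 0.07. Tumors 1, 3, 5, 7 and 8 needed 0.23, 0.24, 0.25, 0.24 and 0.27. Tumor 6 kept its call until 0 was lowered by more than 0.23, and the array median of that tumor lay 0.23 below its commonest level, close to this limit. Whole gains began when 0 was lowered by 0.18 in tumor 1 and by 0.20 in tumor 3. Between a lowering of 0.17 and a raising of 0.06 the count stayed at 1 whole loss and no whole gain with the pattern kept. With the pattern subtracted, tumors 2 and 4 needed a raising of 0.08 and 0.06, and tumor 6 again kept its call down to a lowering of 0.23. Taking the commonest level from the other autosomes only, or from a narrower or wider density, choices added after the data were seen, left the count at 1, and the largest move was that of tumor 8, to -0.0065 with the wider density.

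**Figure D4:**
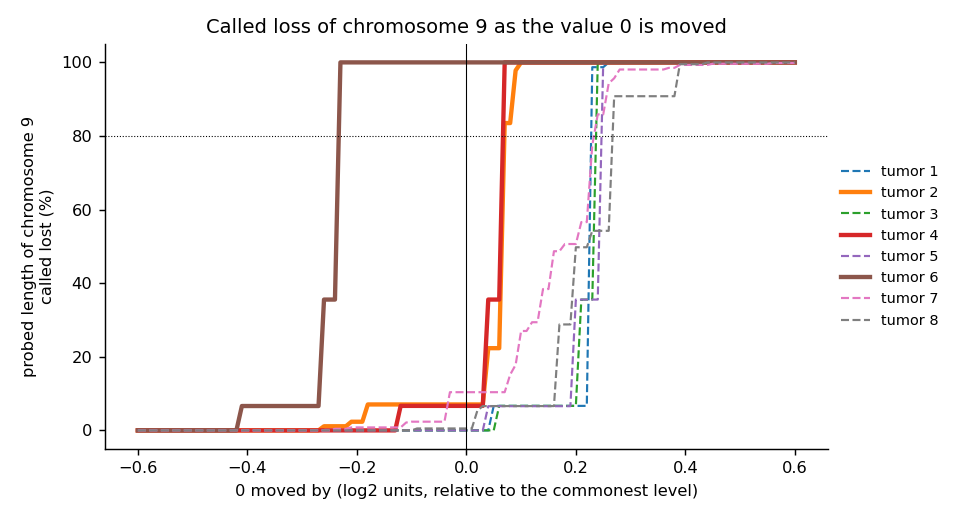
Share of the probed length of chromosome 9 called lost (vertical axis, percent) as the value 0 is moved (horizontal axis, log2 units relative to the commonest level, pattern kept), with 1 line for each of 8 tumors and a dotted line at the 80% that makes a whole loss. Tumor 6 crosses it at -0.23, tumors 2 and 4 at 0.07 and the other 5 tumors between 0.23 and 0.27.

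With the pattern kept, a low stretch ending near 46 Mb was common to the 8 tumors. Tumors 2, 7 and 8 also had steps that tumors 3 to 6 lacked, as did tumor 1 around a segment of 5 probes. Tumors 1 to 6 each had a low segment that ended at the same probe, at position 46073366. It ran over chr9:38015882-46073366 in tumors 1, 3 and 4, at -0.16, -0.14 and -0.33, over chr9:38117916-46073366 at -0.16 in tumor 5, over chr9:38060305-46073366 at -0.62 in tumor 6, and over the shorter chr9:40394353-46073366 at -0.38 in tumor 2. Of these 6 tumors it passed the threshold in tumors 2, 4 and 6, where the whole chromosome was low as well. Among steps between segments of at least 50 probes, the step up at its distal end was the largest in tumors 1, 3, 4, 5 and 6, by 0.18, 0.17, 0.19, 0.20 and 0.18. With shorter segments counted it remained the largest in tumors 3 to 6, and in tumor 1 the largest was a rise of 1.67 into a segment of 5 probes. The step had nearly the same height in a tumor without loss and in the tumor with the whole loss. In tumors 7 and 8 the same stretch was a segment over chr9:40455317-46255199, at -0.23 and -0.18.

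Over the 477 probes of chr9:40394353-46073366, a region chosen after its values were seen and therefore not tested, the mean log2 ratio was -0.18, -0.38, -0.15, -0.35, -0.17, -0.62, -0.23 and -0.18 in tumors 1 to 8. Measured against the 5 Mb on either side, it differed by -0.20, -0.23, -0.18, -0.20, -0.19, -0.16, -0.22 and -0.20, or -0.20 ± 0.021 (SD, n = 8). All 8 tumors were low there by nearly the same amount, whatever the level of the rest of the chromosome. With the shared pattern subtracted, which takes away by construction what most arrays have in common, the same difference was -0.013 ± 0.053 (SD, n = 8), with 3 of 8 below 0 and the lowest values in tumors 7 and 8 (-0.10 and -0.077). Whether such shared dips belong to the DNA of these mice, to the reference pool or to the probes cannot be told apart with 1 reference pool and 1 dye orientation.

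The other called segments of at least 50 probes with the pattern kept were few. In tumor 2 they were chr9:20358651-21844119 at -0.41 and chr9:120053373-121409653 at -0.47, and the distal edge of the second was the largest step of that tumor, by 0.36. In tumor 7 they were chr9:20358651-21961872 at -0.32, chr9:40455317-46255199 at -0.23 and chr9:118512795-122381612 at -0.23, and the largest step between segments of that length was a change of -0.51 into the first of these. With shorter segments counted, the largest in tumor 7 was a change of -0.59 into 42 probes starting at position 107166173. In tumor 8 it was chr9:34379753-35017917 at -0.29, entered by a change of -0.35, and with shorter segments counted the largest step was a rise of 0.93 into 5 probes. Tumors 2 and 7 thus called overlapping stretches near 20 and 120 Mb. These stretches were low in tumors with no call too. The bin from 21000001 to 22000000 had log2 ratios of -0.18, -0.37, -0.13, -0.33, -0.17, -0.59, -0.32 and -0.17 in tumors 1 to 8. The bin from 120000001 to 121000000 had log2 ratios of -0.25, -0.43, -0.22, -0.40, -0.21, -0.67, -0.30 and -0.19. Both bins lay below the mean of chromosome 9 in each of the 8 tumors.

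In tumor 6 the whole chromosome formed 3 lost segments with the pattern kept, at -0.47 over chr9:3046525-38044374, at -0.62 over the shared low stretch and at -0.43 over chr9:46080122-124061581. With the pattern subtracted it formed 19 segments, all of them called lost, the shallowest at -0.39 over chr9:20311430-21789641. Between them the 17 segments of at least 50 probes lay from -0.54 to -0.39, so the loss of tumor 6 was near to level from end to end. The lowest segment, -0.82 over 5 probes at chr9:60428520-60459950, was the only one under 3 Mb past a size of 0.8 on that scale.

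With the pattern subtracted, the profiles of tumors 7 and 8 over 121 bins correlated at 0.67, so these arrays shared part of their outline. Pairs of tumors 1 to 6 then correlated at -0.61 to 0.53, and pairs of these with tumor 7 or 8 at -0.76 to 0.69. The changes listed next for tumors 7 and 8 were read on that scale. Tumor 7 was cut into 65 segments and tumor 8 into 35 with the pattern subtracted, against 10 to 33 in tumors 1 to 6, which also had the lower noise on that scale. Tumor 7 had losses of at least 50 probes at chr9:26347831-27163515 (-0.22), chr9:45105396-45649570 (-0.26) and chr9:57772403-58362670 (-0.26), each under 1 Mb. Tumor 8 had a gain of 0.23 over the 276 probes of chr9:3344921-7576081, its only called change of that size. Over the 462 probes of the first 10 Mb window tumor 8 lay at 0.19 on both scales, where the other 7 tumors lay between -0.47 and 0.035 with the pattern kept. The lowest of these values belongs to tumor 6, whose whole chromosome was low. Relative to each tumor's own chromosome 9 mean, the window was at 0.18 in tumor 8, 0.083 in tumor 7 and 0.046 in tumor 2. In tumors 1, 3, 4, 5 and 6 it was at -0.019 to 0.022, so tumor 7 was raised there too. Within it, the stretch of 276 probes passed the threshold of 0.2 with the pattern subtracted and none did with the pattern kept.

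Short changes of large size were rare. With the pattern kept, 2 segments under 3 Mb passed a log2 ratio of 0.8 in size, both gains over 5 probes, at chr9:122472943-122513985 in tumor 1 (1.69) and at chr9:19692217-19728742 in tumor 8 (0.99). Neither was called with the pattern subtracted. At 5 probes and noise of 0.39 to 0.65 per probe such segments are the shortest the rule admits.

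Across the 8 tumors, 23 of the 121 bins lay below the mean of chromosome 9 in 8 of 8 tumors with the pattern kept, beside 18.5% of all bins of the genome against their own chromosome, and 24 lay above it in 8 of 8, beside 18.1%. Both counts were 0 with the pattern subtracted (0.0% of the genome). With the pattern kept, the profiles over 121 bins correlated at 0.78 to 0.95 between pairs of tumors 1 to 6. They correlated at 0.42 to 0.82 for pairs of these with tumor 7 or 8, and at 0.82 between tumors 7 and 8. These values are given as a description, since all arrays share the reference pool and the probes. A like outline of chromosome 9 was thus present in tumors with and without a low level. The SD over bins was 0.090 to 0.10 with the pattern kept in each tumor, and in tumors 1 to 6 it was 0.024 to 0.036 with it subtracted.

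**Figure D5:**
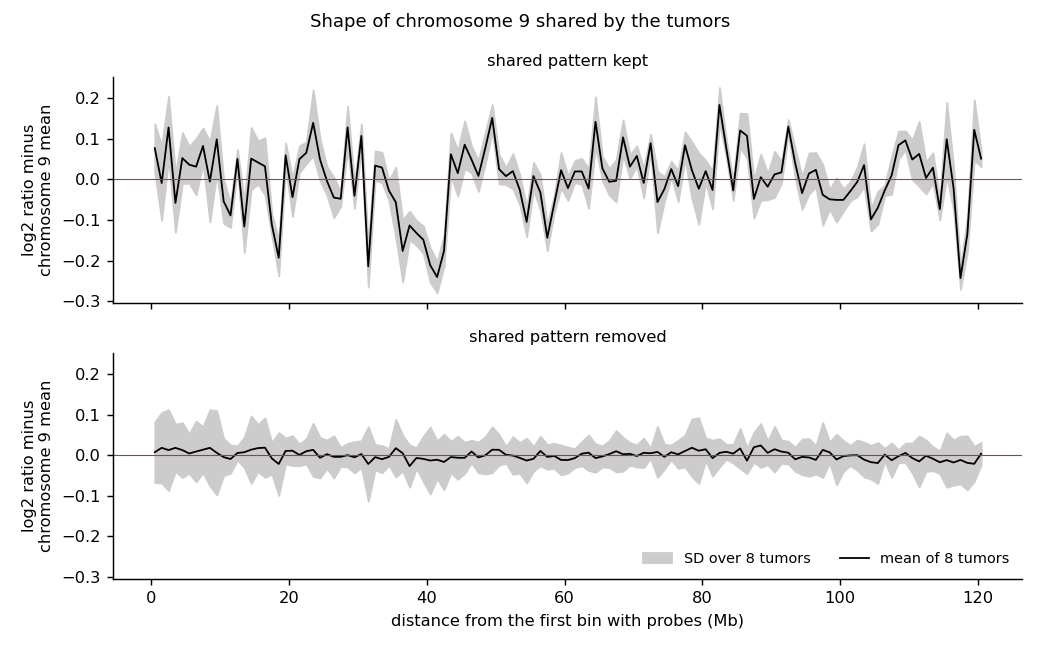
Mean over 8 tumors (black line) and SD (grey band) of the log2 ratio of each 1 Mb bin after subtracting each tumor's chromosome 9 mean (vertical axis), by distance from the first bin with probes (horizontal axis, Mb), with the shared pattern kept above and subtracted below. With the pattern kept the line reaches from -0.24 to 0.18 and dips broadly near 40 Mb and sharply near 118 Mb, and with it subtracted the line stays between -0.027 and 0.024.

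No bin of chromosome 9 was called lower or higher than the pool over the 8 tumors. With limma's treat test of a log2 size above 0.1, adjusted over 2531 bins, 0 of 121 bins were lower and 0 higher, beside 0.079% and 0.0395% of all bins. At an unadjusted p under 0.05 there were 13 lower (9.05% of all bins) and 0 higher. The 3 lowest bins were those starting at 120000001 (-0.33 ± 0.16 SD), 44000001 (-0.33 ± 0.16) and 34000001 (-0.30 ± 0.16), each below 0 in 8 of 8 tumors, with adjusted limma p of 0.102, 0.102 and 0.109. The 3 highest started at 85000001 (0.093 ± 0.18), 52000001 (0.061 ± 0.17) and 67000001 (0.052 ± 0.15), and tumor 6 was below 0 in each. Testing for a size above 0.05 called 6 bins lower (2.92% of all bins), and testing for any size called 17 lower (11.1%) and 0 higher. With the pattern subtracted, the test of a size above 0.1 called 0 bins lower and 0 higher, also at an unadjusted p under 0.05, where 4.11% of all bins were lower.

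The distal part of chromosome 9, beyond the midpoint of the probed span, was slightly higher than the proximal part with the pattern kept. The difference was 0.038, 0.042, 0.048, 0.049, 0.056, 0.049, 0.021 and -0.011 in tumors 1 to 8. It was above 0 in 7 of 8 tumors and smaller in tumors 7 and 8, the tumors with the weaker shared pattern. The mean was 0.037 ± 0.022 (SD, n = 8; two-sided exact sign-flip permutation p = 0.0156, adjusted 0.0284 over 20 chromosomes). A share of 55.0% of the chromosomes passed this test, so the pass does not set chromosome 9 apart. Without the pattern the mean was -0.0020 ± 0.015 (SD, n = 8; exact permutation p = 0.859) and 0.0% passed. Leaving out any 1 of tumors 1 to 7 moved the adjusted p to between 0.0521 and 0.0568, which ends the call, and leaving out tumor 8 gave 0.0391.

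The arrays lay on 2 slides of 4. Chromosome 9 had a mean of -0.074 ± 0.097 (SD, n = 4) on the first slide and -0.12 ± 0.23 (SD, n = 4) on the second, a difference of 0.046 (two-sided exact permutation p = 0.886 over 70 splits, the lowest possible p being 0.0286). Low tumors lay on both slides, tumors 2 and 4 on the first and tumor 6 on the second. Without tumor 6 the second slide had a mean of -0.0071.

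Chromosome 9 carries 66 genes of 5 lists chosen for the liver and for tumors, out of its 1201 protein-coding genes in the RefSeq annotation of a later genome build. That annotation gave names, chromosome and order only, so no gene could be set inside or outside a segment measured on mm9. What holds for each of them is that it lies on the chromosome lost as a whole in tumor 6 at a mean of -0.46, which was at -0.16 in tumors 2 and 4 and near 0 in tumors 1, 3, 5 and 8.

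The 13 genes of the YAP neighbourhood were all among the first 32 of the gene order, the end of the chromosome where tumor 8 was highest. They comprise Yap1 (28th in order), the growth-promoting co-activator that the Hippo pathway restrains, and beside it Birc2 (26th) and Birc3 (27th), which block cell death and are known to be amplified with Yap1 in liver tumors of mice. The matrix metalloproteinase genes Mmp7, Mmp13, Mmp3 and Mmp10, the inflammatory caspase genes Casp1 and Casp4, their neighbour Casp12, the growth factor gene Pdgfd, the cation channel gene Trpc6 and the progesterone receptor gene Pgr complete the list. With the pattern kept no segment in the first 10 Mb window was called gained in any tumor. With it subtracted, tumor 8 had a called gain of 0.23 there, over chr9:3344921-7576081. The mean of this window over 8 tumors, with the pattern kept, was -0.057 ± 0.19 (SD), with 4 of 8 below 0, and tumor 8 had the highest value, 0.19. Whether these genes lie within that window on mm9 was not tested.

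The 16 liver metabolism genes were spread along the order. Sc5d (376th), an enzyme of cholesterol synthesis, comes before the apolipoprotein cluster of Apoa1, Apoc3, Apoa4 and Apoa5 (445th to 448th), whose products build and regulate lipoproteins. Acat1 (510th), a thiolase of ketone metabolism, and the drug-metabolizing Cyp1a2 and Cyp1a1 (571st and 572nd) lie nearer the middle, followed by Lipc (700th), the hepatic lipase, and Trf (895th), the iron carrier transferrin. Cyp8b1 (1158th), which sets the balance of bile acids, lies near the distal end. The other 3 lists held 6 oxidative stress genes, 20 tumor suppressor and DNA repair genes and 11 growth genes, all on chromosome 9. In tumor 6 the proximal, middle and distal stretches of the chromosome, equal in span, lay at -0.49, -0.45 and -0.43, in tumor 2 at -0.18, -0.15 and -0.15, and in tumor 4 at -0.18, -0.16 and -0.13. Within each of these 3 tumors the 3 stretches lay close together, tumor 6 far below the other 2.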

How the data were processed

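Values came from 8 two-colour arrays of genomic DNA, 1 per tumor. Per the submitters' processing notes images were extracted with Agilent Feature Extraction 10.7.3.1. The deposited processed signals are intensity values that, per the file headers, were background-subtracted, detrended and linearly dye-normalized within each array. The authors' deposited ratios, not centred, are on a log10 scale of red over green. The deposited quality marks are values of 0 or 1, of the kind other. Probe positions are on mm9, per the file headers. Here, log2 of red over green processed signal was taken, control spots and spots with an outlier mark (5 to 9 per array on chromosome 9) were left out, and spots of 1 probe were averaged. Segments came from recursive circular binary segmentation (Python 3.11.15, numpy 2.4.6, scipy 1.17.1, numba 0.67.0, pandas 2.3.3), set to 1% false splits per chromosome, with probe values limited to 4 noise SD and neighbours merged below a z of 4. The commonest level was the peak of the density of autosomal segment means (bandwidth 0.03). The shared pattern is a probe's median ratio over the 8 arrays after subtracting chromosome medians, scaled to each array. Bins of 1 Mb held at least 10 probes and were compared with 0 by limma 3.58.1 (R 4.3.3) with Benjamini-Hochberg adjustment; chromosomes were tested by exact sign-flip permutation. Scripts were tested on simulated data. Arrays give no read depth, and their number limits the precision. The rule for what is named took called segments of at least 50 probes, the largest step per tumor (also among segments of at least 50 probes, a limit added later), the 3 lowest and highest bins, short segments of at least 0.8 in size, and up to 25 list genes in list order, of which 1 is not reported here. The chromosome, the lists and the tests were chosen with earlier results of these data known. Alternatives covered the centring, the pattern, background correction (normexp, offset 50), spot filters, thresholds, bin size, segmentation and each tumor left out.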

Additional observations from a re-analysis of the deposited data

Results flagged for a closer look

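Tumor 6 stood apart from the other 7 tumors in its chromosome 9 mean (-0.46 with the pattern kept, -0.46 with it subtracted), in the share of length lost (100% on both scales) and in the difference from the median of the other autosomes (-0.45 and -0.44). With the pattern subtracted, tumor 8 stood apart in the share of length gained (3.57%) and in the distal minus the proximal part (-0.036). In each case the gap to the nearest tumor was large for the range of the group of 8, by a limit that chance passes in about 1 in 20 groups. Of 10 such measures examined, 8 passed it, and several of these are the same measure on 2 scales.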

How the results depend on the processing

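Of 164 alternative values, 143 were counted as keeping their direction and their side of the threshold, or as staying near the value reported. That count was lenient for the median share lost. All 25 of its alternatives were counted as the same, although they ran from 0% on the density peak to 16.8% at a threshold of 0.1, against 3.59%. The mean of chromosome 9 over tumors turned to 0.040 on the array median, 0.017 on the median of autosome medians and 0.29 on the density peak of probe values, where tumor 6 rose to 0.048. Those values set a mean over probes against a 0 made from medians or from a peak of probe values, and the probe medians lay lower. Medians over probes gave -0.19 (exact permutation, adjusted p = 0.0156), because 0 was set on segment means and the probe medians lie below them. The difference from the other autosomes was 0.012 without tumors 2, 4 and 6. The distal minus the proximal part was -0.0020 with the pattern subtracted, -0.0011 with the pattern of the other 7 arrays, added after the data were seen, and 0.047 without tumors 7 and 8 (exact permutation, adjusted p = 0.0694, with 6 tumors). Whole losses of chromosome 9 numbered 0 on the density peak and 3 at a threshold of 0.1, with no share over all pairs of a chromosome and a tumor to set beside them. Lower bins numbered 6 at a tested size of 0.05 (2.92% of all bins) and 17 at any size (11.1%). Higher bins numbered 102 of 121 on the density peak, where 2041 of all 2531 bins of the genome were called higher, so that count does not set chromosome 9 apart. Leaving out 1 tumor at a time gave -0.11 to -0.045 for the mean, -0.10 to -0.032 for the difference from the other autosomes, 0.034 to 0.043 for the distal minus the proximal part, 0.528% to 6.66% for the median share lost, 0 to 0 lower or higher bins, and -0.067 (without tumor 6) to 0.091 for the slide difference. Where no construction is named, the cause was not tested. No paired analysis was possible because the labels form 1 group against 1 pool. The number of arrays, the single pool and the unswapped dyes limit every value.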
